A study of Mus musculus with 12 samples.

Results

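Gonadal white fat of mice lacking both Gadd45a and Ing1 was compared with that of wild-type mice on 3 one-colour arrays of each genotype, chosen by their labels from the 12 arrays of the series. The double knockout (DKO) carries the genotype Gadd45a-/-;Ing1-/- and came from crosses of mice deficient in either gene. Ing1-/- mice (Ing1-KO), Gadd45a-/- mice (Gadd45a-KO) and wild-type mice (WT) are the other groups, with 3 arrays each. All animals were untreated C57BL/6N males aged 59 to 67 days, and the labels name no conditional allele or Cre, so the knockouts are taken as those of the whole animal. Each array holds RNA pooled from 3 animals, and 9 animals stand behind each genotype, so that the arrays differ as pools and not as single animals. The spread between arrays of a genotype also holds any difference between the slides that carried them.

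White adipocytes store triglyceride and release fatty acids from it by lipolysis, and their mitochondria oxidise fatty acids and the carbon of branched-chain amino acids. Fat also holds macrophages, lymphocytes, progenitors and vessels, whose RNA is part of every sample. Ing1 encodes a reader of histone H3 trimethylated at lysine 4 that belongs to a Sin3 histone deacetylase complex, and Gadd45a encodes a stress-induced protein with roles in DNA repair and in active DNA demethylation, a process that the Tet enzymes begin by oxidising methylcytosine. In bulk tissue, fewer cells of a type and less RNA per cell cannot be told apart, and this holds for every group of cell type genes below.

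Of 55681 probes on the array, 31453 genes or unnamed probes were well above background on at least 3 of the 12 arrays and were tested, and 15954 of them carry a gene name. Values are normalized log2 signals, 1 step being a 2-fold difference within a probe, and signals of different genes are not compared. Each of the 3 slides carried 1 array of every genotype, under the same replicate number. The 75th percentile of the processed signal per array lay between 646.4 and 818.1 in DKO and between 455.6 and 747.6 in WT, with the lowest value in WT replicate 2, and precision is limited by the small number of arrays. Adipocyte transcripts were present in every array, as the lipid droplet gene Plin1 shows at 15.94, 15.85 and 15.40 in DKO, against 14.91, 15.35 and 14.94 in WT. Skeletal muscle transcripts stood out in replicate 1 of the knockouts: the median of 23 such genes lay 1.59, -0.02 and -0.16 from the WT mean in DKO, 2.23, -0.02 and -0.03 in Ing1-KO, 0.67, -0.10 and 0.11 in Gadd45a-KO, and 0.02, 0.02 and -0.16 in WT.

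The genes called in fat of double-knockout mice included higher transcripts of fat oxidation, glycogen storage and lipid droplet control and lower transcripts of myeloid cell receptors. Limma called 51 of 31453 genes or unnamed probes at an adjusted p under 0.05, which is 0.162%, with 26 higher (0.0827%) and 25 lower (0.0795%). Among the named genes 20 rose and 13 fell, and 29 of the 51 changed at least 2-fold. The 3 DKO values lay apart from the 3 WT values for all 51, and for 22.3% of everything tested. With the slide as a block in the model, 653 were called (2.08%), 388 higher (1.23%) and 265 lower (0.843%), and these included all 51. The adjusted p-values crowd near the threshold, so that 326 would pass at 0.07 and 1822 at 0.1. The count of 51 changed to 2, 1 and 3307 without DKO replicates 1, 2 and 3. Leaving out Ing1-KO replicate 1 gave 32 calls, and replicate 2 or 3 gave 2 each. Leaving out Gadd45a-KO replicate 3 gave 234, and replicate 1 or 2 gave 1 each. Leaving out WT replicate 2 gave 1192, replicate 1 gave 1 and replicate 3 gave 2. All 51 kept their direction in each of these fits, which could not be otherwise. Their DKO and WT values lay apart, and arrays of the single knockouts do not enter the difference.

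**Figure D1:**
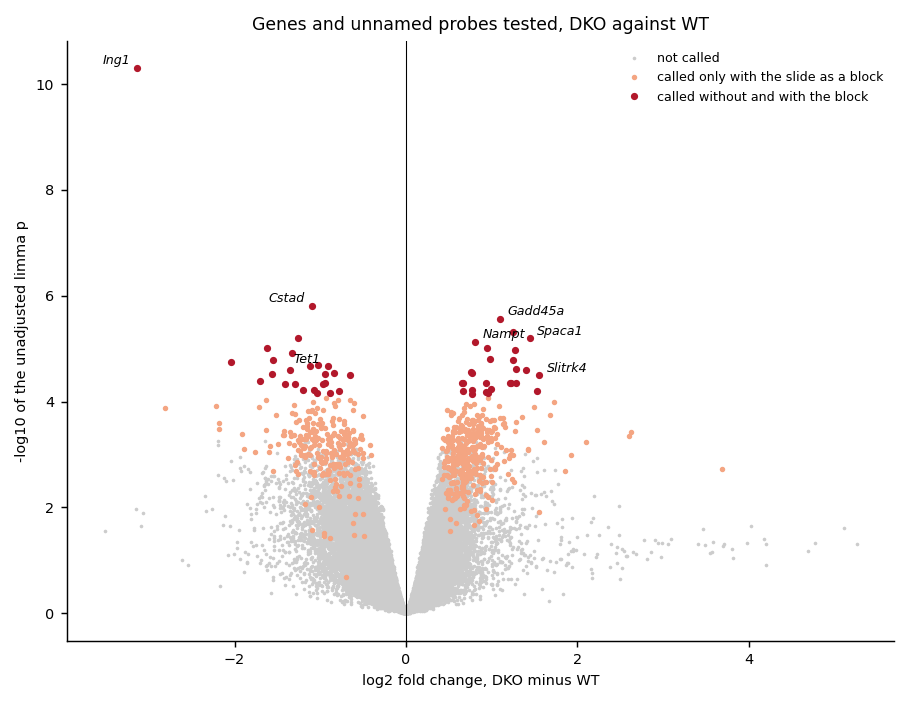
Log2 fold change of DKO minus WT (x axis) against -log10 of the unadjusted limma p (y axis) for 31453 genes or unnamed probes, 1 point each. The 51 dark points were called without and with the slide as a block, the lighter points only with it, and Ing1 lies above all other points at a log2 fold change of -3.14.

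The targeted genes were examined first. Ing1 had 9.13, 9.23 and 9.60 in DKO, against 12.45, 12.43 and 12.49 in WT. It fell by 3.14 on the log2 scale (SE 0.14, limma adjusted p = 1.56e-06), with 9.40 as the mean of Ing1-KO and 12.55 as that of Gadd45a-KO. The Gadd45a probe gave a higher signal in the arrays labelled DKO, 10.60, 10.62 and 10.61, against 9.33, 9.80 and 9.41 in WT, a log2 fold change of 1.10 ± 0.13 (SE, limma adjusted p = 0.0289). Its mean was 10.17 in arrays labelled Gadd45a-KO and 9.20 in Ing1-KO. Whether this probe falls inside the deletion was not given in the sources used here, so it does not check the Gadd45a label. The 3 other Gadd45 genes and partners with the smallest p did not pass: Gadd45b had -0.83 ± 0.19 (limma adjusted p = 0.0713), Gadd45g 0.70 ± 0.22 and the kinase gene Map3k4, whose product Gadd45 proteins bind, 0.30 ± 0.11. Gadd45b was called with the slide as a block (adjusted p = 0.0433).

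Several genes called higher act in the handling of fatty acids and their CoA esters. Acadl encodes the long-chain acyl-CoA dehydrogenase that opens a round of mitochondrial beta-oxidation. It had 13.83, 14.04 and 13.80 in DKO, against 12.90, 13.20 and 12.63 in WT. All 3 DKO arrays lay above all 3 WT arrays, and the rise was 1.97-fold (limma adjusted p = 0.0356). G0s2, whose protein inhibits the triglyceride lipase Pnpla2, had 13.70, 13.40 and 13.02 in DKO, against 12.12, 12.29 and 11.88 in WT, a rise of 2.42-fold (limma adjusted p = 0.0338). Acot4, a mouse peroxisomal thioesterase that releases coenzyme A from succinyl-CoA, had 8.44, 7.96 and 8.34 in DKO, against 6.97, 7.14 and 6.87 in WT, a rise of 2.38-fold (limma adjusted p = 0.0356). Acot4 has close paralogues in a gene cluster, so the gene behind its probe is less certain; Acot1 had 0.72 ± 0.23, Acot2 0.34 ± 0.24 and Acot3, named after its values were seen, -0.47 ± 0.43, none of them called. Outside fatty acid handling, Chdh, the mitochondrial choline dehydrogenase, rose 1.99-fold with 10.29, 9.92 and 9.70 in DKO, against 8.93, 9.02 and 8.99 in WT.

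Other called genes act in glycogen, glucose and NAD handling. Ppp1r3c targets protein phosphatase 1 to glycogen and so favours glycogen synthesis. It had 11.17, 11.49 and 11.40 in DKO, against 9.63, 10.45 and 10.33 in WT, a rise of 2.33-fold (limma adjusted p = 0.0383). Its WT replicate 1 lay lowest, and the differences within slides 1, 2 and 3 were 1.54, 1.04 and 1.08. Hk2, the insulin-regulated hexokinase, had 12.65, 12.52 and 12.65 in DKO, against 11.32, 11.90 and 11.73 in WT, a rise of 1.94-fold (limma adjusted p = 0.0437). Rhoq, a small GTPase of insulin-stimulated glucose transporter traffic in adipocytes, rose 1.57-fold with 13.54, 13.53 and 13.37 in DKO, against 12.89, 12.82 and 12.76 in WT. Nampt makes the precursor of NAD in its salvage pathway and is also secreted by fat. Its values were 12.39, 12.28 and 12.36 in DKO, against 11.55, 11.43 and 11.62 in WT, a narrow spread in both groups around a rise of 1.75-fold (limma adjusted p = 0.0335).

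Mitochondrial upkeep and other functions account for the remaining rises. Isca1, which helps assemble iron-sulfur clusters in mitochondria, had 13.28, 13.18 and 12.98 in DKO, against 12.37, 12.40 and 12.40 in WT. The mitochondrial carrier gene Slc25a16 had 9.90, 9.95 and 9.88 in DKO, against 9.27, 8.99 and 9.14 in WT. Their rises were 1.69-fold and 1.71-fold. Dpyd, the first enzyme of pyrimidine breakdown, rose 1.91-fold, Vkorc1l1, a paralogue of the vitamin K epoxide reductase, 1.59-fold, and Tarsl2, a threonyl-tRNA synthetase gene, 1.58-fold. Rasd1, a Ras-like GTPase first found as a glucocorticoid-induced gene, had 11.12, 11.42 and 11.23 in DKO, against 9.93, 9.85 and 10.14 in WT, a rise of 2.44-fold. Arl3, a GTPase of ciliary traffic, rose 1.71-fold and Sowahc 1.93-fold. Slitrk4, a synaptic adhesion gene, rose 2.94-fold and Spaca1, a sperm acrosome gene, 2.73-fold; both were well above background on all 6 arrays. With normexp Slitrk4 stayed called at a log2 fold change of 0.92. Slitrk4 averaged 7.47 in both DKO and Ing1-KO, and Spaca1 9.37 in DKO and 9.36 in Ing1-KO. The limma adjusted p of all the rises named in these 3 paragraphs lay between 0.0334 and 0.0443.

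Myeloid receptors and a DNA demethylation enzyme were among the 13 named genes that fell. Tet1, a dioxygenase that oxidises methylcytosine, had 7.24, 7.14 and 7.35 in DKO, against 8.20, 8.05 and 8.22 in WT. The groups lay well apart, and Tet1 was 1.88-fold lower (limma adjusted p = 0.0356). Cx3cr1, the fractalkine receptor of monocytes and macrophages, had 9.64, 9.35 and 9.88 in DKO, against 10.80, 10.49 and 10.43 in WT, 1.93-fold lower (limma adjusted p = 0.0383). Tnfrsf11a, also known as RANK, the receptor that drives osteoclast formation, had 9.85, 9.87 and 9.94 in DKO, against 10.56, 10.56 and 10.51 in WT, 1.58-fold lower (limma adjusted p = 0.0356). For Tet1 and Tnfrsf11a the spread within each group was small beside the difference, while the values of Cx3cr1 were more spread within groups.

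Cd300c2, an activating receptor of myeloid cells, had 9.04, 8.98 and 9.34 in DKO, against 10.61, 9.89 and 10.20 in WT, 2.17-fold lower. Lilra6, an immunoglobulin-like receptor with near-identical neighbours on its cluster, had 10.16, 9.54 and 10.05 in DKO, against 11.27, 10.78 and 10.92 in WT, 2.11-fold lower. Because of these copies the gene behind its probe is uncertain, and its relative Pirb, an inhibitory receptor, had -0.83 ± 0.15 (limma adjusted p = 0.0573). Dok1, an adaptor that restrains tyrosine kinase signalling in blood cells, was 1.72-fold lower. The other falls were in Cstad (2.13-fold), the brain adhesion receptor gene Adgrb2 (2.46-fold), Begain, which encodes a partner of synaptic scaffold proteins (1.96-fold), and the glycosyltransferase gene B4galnt2 (1.85-fold). B4galnt2 had a log2 fold change of -0.34 with normexp background correction (limma adjusted p = 0.0614) and -0.58 with the authors' log2 values (0.0647), and its call was also lost with quantile normalization and with median centring. Adgrb2 stayed called with normexp at -0.85. The 33 named genes also hold a predicted gene and 2 clone names, which are passed over here.

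**Figure D2:**
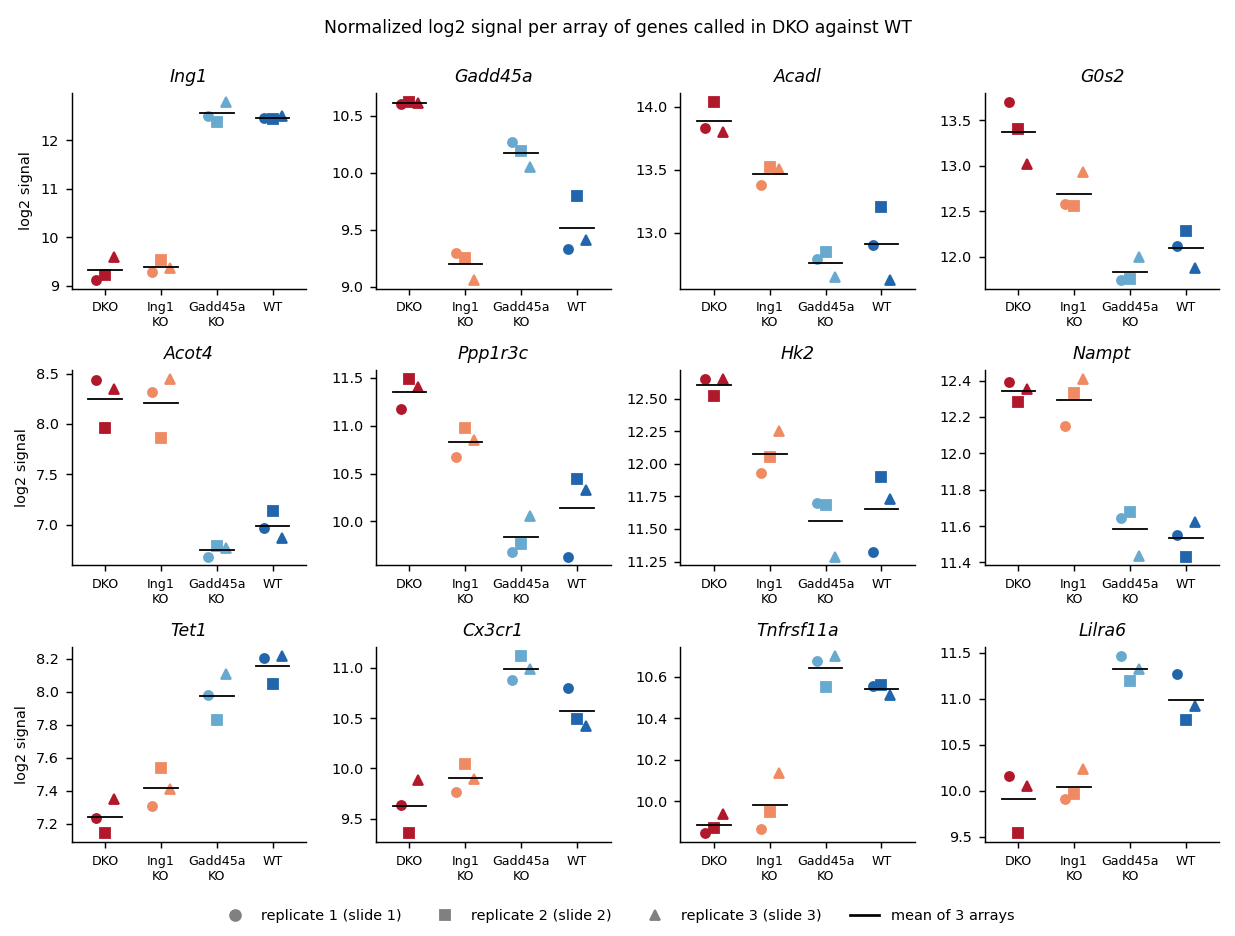
Normalized log2 signal (y axis, its range differs between panels) of 12 called genes on each array of DKO, Ing1-KO, Gadd45a-KO and WT (x axis), with markers for replicates 1 to 3 and a line for the mean of 3 arrays. DKO and WT points do not overlap in any panel, and Acot4, Nampt and Tnfrsf11a lie at about the same level in DKO and Ing1-KO, while Acadl, G0s2, Ppp1r3c and Hk2 have DKO means 0.42 to 0.69 above Ing1-KO.

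The sequences before the start sites of called genes were read to describe the letters they hold. Whether these genes are regulated together was not tested. RefSeq windows of GRCm38.p6, from 250 bases before a start site to 50 after it, were found for 17 of the 20 named genes that rose and 12 of the 13 that fell. Both targeted genes are counted here, Gadd45a with the rising and Ing1 with the falling genes. The direct repeat of AGGTCA with 1 base between its copies, known as DR1, which nuclear receptors such as the PPARs bind, was searched on both strands and stands before 0.048% of all 27025 genes with a window. It occurred in 1 rising gene, Isca1, and in 0 of the falling genes. The repeat's own unit AGGTCA, which overlaps it, stood in 4 of 17 rising and 2 of 12 falling genes, and in 18.1% of all genes. The C/EBP-like letters TTGCNNAA stood in 3 of 17 rising genes, 1 of them the targeted Gadd45a, in 1 of 12 falling genes, and in 12.2% of all genes. The E-box CACGTG stood in 3 of 17 rising and 1 of 12 falling genes, and in 8.09% of all genes. GGGCGG stood in 14 of 17 rising and 6 of 12 falling genes (38.2% of all genes), CCAAT in 7 and 5 (41.1%), TGACG in 7 and 3 (23.0%), TATAAA in 1 and 1 (15.7%) and TGACGTCA, which holds TGACG, in 0 and 0 (2.03%). The shares are of all 27025 genes with a window, whether or not they were tested on the arrays. They are therefore no baseline for the genes that could be called. These matches are a description of letters in a window and not of binding. The windows of 3 genes are shown, with the match to the searched letters in capitals: the repeat in Isca1 (chr13:59769740-59770039, minus strand), the unit of that repeat, read on the other strand, in Acot4 (chr12:84038129-84038428, plus strand), and TTGCNNAA in the Gadd45a window (chr6:67037358-67037657, minus strand).
Isca1: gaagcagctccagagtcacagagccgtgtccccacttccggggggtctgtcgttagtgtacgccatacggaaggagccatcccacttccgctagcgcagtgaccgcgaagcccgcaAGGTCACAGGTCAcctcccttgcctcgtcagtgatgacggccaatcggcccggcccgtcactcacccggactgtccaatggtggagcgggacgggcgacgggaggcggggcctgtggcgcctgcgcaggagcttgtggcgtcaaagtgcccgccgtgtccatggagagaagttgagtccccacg
Acot4: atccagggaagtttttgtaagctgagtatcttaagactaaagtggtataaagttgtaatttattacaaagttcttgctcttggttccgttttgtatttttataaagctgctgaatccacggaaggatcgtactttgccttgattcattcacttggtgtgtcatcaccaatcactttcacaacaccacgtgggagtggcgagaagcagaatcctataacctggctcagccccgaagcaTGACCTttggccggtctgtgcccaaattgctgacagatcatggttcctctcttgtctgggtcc
Gadd45a: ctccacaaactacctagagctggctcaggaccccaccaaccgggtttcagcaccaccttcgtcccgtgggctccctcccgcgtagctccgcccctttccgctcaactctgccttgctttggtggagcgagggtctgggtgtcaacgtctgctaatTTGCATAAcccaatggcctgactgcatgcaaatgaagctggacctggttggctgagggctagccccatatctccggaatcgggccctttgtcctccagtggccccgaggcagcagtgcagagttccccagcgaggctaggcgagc

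With the slide as a block, 321 named genes rose (2.01% of named genes) and 160 fell (1%). Among them, and with groups that did not overlap, the largest rises included genes of lipid handling. Plin5, which tethers lipid droplets to mitochondria, had 13.20, 12.91 and 13.14 in DKO, against 11.20, 12.44 and 11.33 in WT, and a log2 fold change of 1.42 ± 0.32 (limma adjusted p = 0.0713, and 0.0454 with the block). WT replicate 2 lay nearest to the DKO arrays. Acsm3, a medium-chain acyl-CoA synthetase, had 12.19, 12.29 and 12.10 in DKO, against 10.95, 10.96 and 10.19 in WT, 2.82-fold higher (limma adjusted p = 0.0573, and 0.0384 with the block). The alpha-1 adrenoceptor gene Adra1a had 1.43 ± 0.32, the bicarbonate cotransporter gene Slc4a4 1.29 ± 0.25, the acetyltransferase gene Nat1 1.27 ± 0.26 and Lgr5, a receptor for R-spondins, 1.86 ± 0.47.

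Some of the largest rises with the block were in genes whose probes were not well above background on any WT array, and for these only a bound on the fold is given, against the lowest signal that counted as above background. On this basis the cornified envelope gene Lce1e was at least 3.43-fold higher, the alcohol dehydrogenase gene Adh6a at least 2.61-fold, the neuronal RNA-binding gene Elavl2 at least 1.83-fold and the meiotic gene Rec114 at least 1.61-fold higher in DKO. These bounds hold for the processed signal alone: with normexp background correction Adh6a had a log2 fold change of 0.60, Lce1e 0.96, Elavl2 0.51 and Rec114 0.29, all below their bounds. Lce1e and Rec114 were above background on 2 of 3 DKO arrays, the other genes on all 3. The largest falls with the block, Ing1 aside, included Igfbp2, which binds insulin-like growth factors, with 5.87, 5.64 and 6.58 in DKO, against 7.54, 7.28 and 8.19 in WT. Its log2 fold change was -1.64 ± 0.33 (adjusted p = 0.0384 with the block). Ramp3, a partner of the calcitonin-receptor-like receptor, had 8.01, 7.65 and 8.34 in DKO, against 9.08, 10.25 and 9.21 in WT. It had -1.52 ± 0.28, and the mean of Ing1-KO, 8.56, lay between the groups. Ccl8, a chemokine for monocytes, had 11.91, 11.60 and 12.11 in DKO, against 13.60, 12.93 and 13.36 in WT, with -1.42 ± 0.29. Other large falls were in Dmbt1 (-1.55), Wdr95 (-1.49), Csprs (-1.43), Cdh22 (-1.38), Apof (-1.36), Nefh (-1.36), Podnl1 (-1.33) and the oocyte coat gene Zp1 (-2.18). Vmn2r96 was at least 1.93-fold, Oosp1 at least 1.58-fold and Ppm1n at least 1.05-fold lower in DKO, where none of the 3 was above background on any array. With normexp these had -0.37, -0.34 and -0.39.

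Genes of mitochondrial fatty acid oxidation had higher signals in DKO as a group. Of 25 genes tested, 24 had a positive log2 fold change and the median was 0.73, beside a median of 0.05 over all named genes, 55.3% of which were positive. Acadl alone rose without the block, where 0.125% of all named genes did, and 9 rose with the slide as a block (2.01% of named genes). At an unadjusted p under 0.05, 22 were higher, where 15.2% of all named genes were. Among those called with the block, Slc25a20, the carnitine carrier of the inner membrane, had 1.06 ± 0.23 (adjusted p = 0.0391 with the block), the medium-chain dehydrogenase Acadm 0.95 ± 0.19 (0.0384), Ech1, an auxiliary enzyme for unsaturated chains, 0.95 ± 0.19 (0.0357), Acad11 0.85 ± 0.16 (0.0332) and Hadh, which takes the third step, 0.75 ± 0.16 (0.0408). Acadm had 16.23, 16.16 and 15.76 in DKO, against 14.94, 15.55 and 14.81 in WT, so that DKO replicate 3 and WT replicate 2 came nearest to each other. The exception was Cpt1a, an isoform of the entry enzyme of the route, with 11.08, 10.96 and 11.16 in DKO, against 11.55, 11.34 and 11.30 in WT. Cpt1a had -0.33 ± 0.12 and Cpt1b, the muscle and brown fat isoform, 1.40 ± 0.54, and neither was called; both were picked out after their values were seen. Within slides 1, 2 and 3 the list's median was 0.93, 0.36 and 0.83.

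The steps downstream of fatty acid oxidation leaned the same way. Of 32 genes of the TCA cycle and pyruvate dehydrogenase, 30 were positive with a median of 0.57, 0 were called without the block and 6 rose with it. Their median was 0.77 within slide 1, 0.12 within slide 2 and 0.65 within slide 3. For all named genes, 55.3% were positive, 2.01% rose with the block and 15.2% were higher at an unadjusted p under 0.05. Succinyl-CoA synthetase was covered in full: the shared subunit Suclg1 had 14.87, 15.03 and 14.70 in DKO, against 13.68, 14.12 and 13.38 in WT. Its log2 fold change was 1.14 ± 0.22 (limma adjusted p = 0.0648, and 0.0384 with the block), and that of the ATP-forming subunit Sucla2 was 0.95 ± 0.20 and that of the GTP-forming subunit Suclg2 0.64 ± 0.13. Suclg1 is one of the 100 named genes nearest to Gadd45a. The succinate dehydrogenase subunit Sdha had 0.62 ± 0.14 (0.0467 with the block). Of 55 subunits of the respiratory chain and ATP synthase, 54 were positive with a median of 0.40, and 0 were called either without or with the block; 26 were higher at an unadjusted p under 0.05. The median was 0.68 without WT replicate 2 and 0.24 without WT replicate 3. Cyc1, cytochrome c1 of complex III, had 0.80 ± 0.21 and the complex I subunit Ndufs1 0.57 ± 0.16. Within slides 1, 2 and 3 the median of this list was 0.78, -0.10 and 0.58, so slide 2 did not share its direction. All 37 mitochondrial ribosomal proteins were positive with a median of 0.36, 25 of them at an unadjusted p under 0.05 and 0 called, and 34 of 35 genes of mitochondrial import and maintenance were positive with a median of 0.34.

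Breakdown of the branched-chain amino acids leucine, isoleucine and valine feeds the same cycle, and its genes held the largest number of calls with the block among the lists. Of 25 tested, 24 were positive with a median of 0.62, 0 were called without the block and 10 rose with it, where 2.01% of all named genes did. Aldh6a1, the methylmalonate semialdehyde dehydrogenase of valine breakdown, had 15.63, 15.45 and 15.04 in DKO, against 14.53, 14.50 and 14.22 in WT. The groups did not overlap, and the log2 fold change was 0.96 ± 0.16 (limma adjusted p = 0.0505, and 0.0215 with the block). The acyl-CoA dehydrogenase Acadsb had 0.99 ± 0.21, the propionyl-CoA carboxylase subunit Pcca 0.94 ± 0.20, the branched-chain dehydrogenase subunit Dbt 0.79 ± 0.16, the methylcrotonyl-CoA carboxylase subunit Mccc2 0.78 ± 0.15 and methylmalonyl-CoA mutase, Mmut, 0.78 ± 0.15. All 5 were called with the block. Within slides 1, 2 and 3 the median was 0.93, 0.41 and 0.61.

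Peroxisomes shorten very long and branched fatty acids before mitochondria finish them. Of 34 peroxisomal genes, 32 were positive with a median of 0.48, 0 were called without the block and 8 rose with it, where 2.01% of all named genes did. Pex3, which brings membrane proteins to new peroxisomes, had 12.35, 12.14 and 11.99 in DKO, against 11.52, 11.46 and 11.30 in WT, with 0.74 ± 0.14 (adjusted p = 0.0332 with the block). Hacl1, which splits branched acyl chains, had 0.74 ± 0.15, the membrane channel gene Pxmp2 0.61 ± 0.14, the import receptor gene Pex7 0.59 ± 0.14 and Pex13 0.58 ± 0.14, all called with the block. Pex6 had 0.50 ± 0.11 and was not (0.0503).

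**Figure D3:**
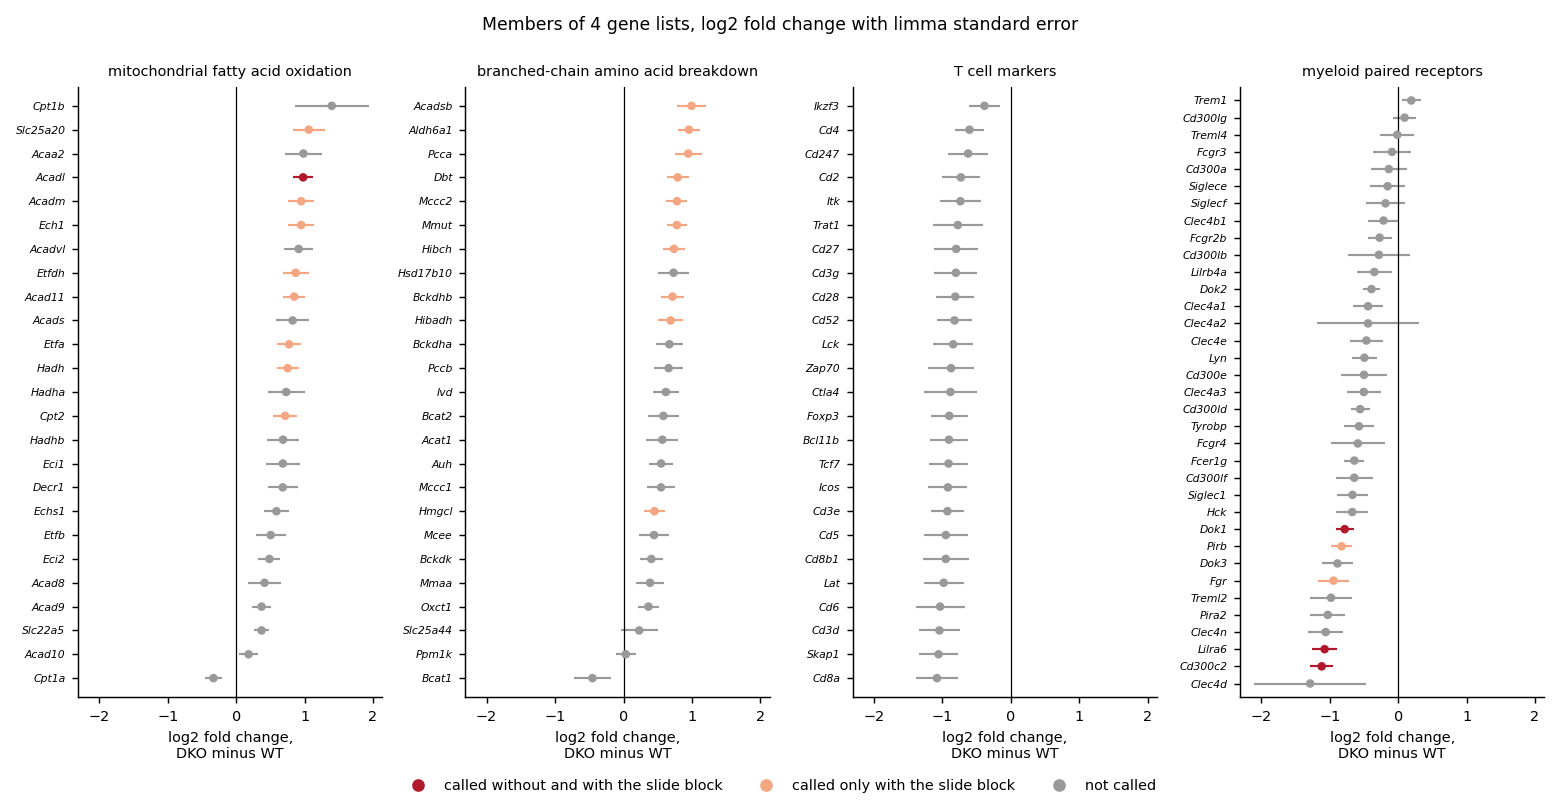
Log2 fold change of DKO minus WT (x axis) of each tested member of 4 gene lists, with bars for the limma standard error and colours for the calls. Cpt1a is the lone negative member among 25 fatty acid oxidation genes and Bcat1 among 25 of branched-chain amino acid breakdown, all 25 T cell markers are negative with none called, and 3 myeloid paired receptors are called lower.

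Genes of triglyceride storage and release were also mostly positive. Of 21 genes of lipolysis and the lipid droplet, 20 were positive with a median of 0.60, 1 rose without the block (G0s2) and 4 with it. For all named genes, 0.125% rose without the block, and 2.01% rose and 1% fell with it. The carboxylesterase genes Ces1d and Ces1f had 1.07 ± 0.22 and 0.86 ± 0.25, were called with the block, and are members of a cluster of near copies. Lipe, the hormone-sensitive lipase, had 0.68 ± 0.25 and was not called. Pnpla2 had 0.36 ± 0.20 and Abhd5, its activator, 0.65 ± 0.24, neither called, and both were picked out after their values were seen. Of 14 genes of fatty acid uptake and activation, 3 rose with the block, among them the fatty acid transporter Cd36 with 0.67 ± 0.18 and the synthetase Acsl1 with 0.65 ± 0.18. Of 20 genes of triglyceride synthesis, 1 rose with the block, Lpin1, the phosphatidate phosphatase, with 1.04 ± 0.21. Fatty acid synthesis stood nearer to all genes, with a median of 0.16, 19 of 23 positive and 0 called. Its medians within slides 1, 2 and 3 were 0.55, -0.48 and 0.52, and it ranged from -0.02 without WT replicate 3 to 0.42 without WT replicate 2. Cholesterol genes had a median of 0.28, and the block called 1 higher, the synthase Hmgcs1 with 0.89 ± 0.21, and 1 lower, the sterol exporter Abcg1 with -0.61 ± 0.11.

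Glycogen genes had a median of 0.42 over 26 tested, of which 1 rose without the block, Ppp1r3c, and 4 with it. The shares of all named genes were 0.125% higher without the block, and 2.01% higher and 1% lower with it. The glycogen phosphorylase Pygb had 0.77 ± 0.18, Phka2, a subunit of its kinase, 0.65 ± 0.19 and Nhlrc1, known as malin, 0.65 ± 0.19, all called with the block, and the synthase Gys1 had 0.62 ± 0.20 and was not (0.0941). Of 27 glycolysis genes, 17 were positive with a median of 0.20 (0.05 without WT replicate 3 and 0.37 without WT replicate 2), and the block called 2 higher, Hk2 and Pfkfb1 with 0.60 ± 0.14, and 1 lower, the lactate exporter Slc16a3 with -0.67 ± 0.14. Of 32 genes of insulin signalling and glucose uptake, 1 rose with the block, the kinase subunit Pik3cb with 0.69 ± 0.14, and the receptor gene Insr had 0.54 ± 0.20 (not called). Among 22 adipokines Nampt was the 1 call without the block, and the leptin gene Lep had 12.46, 12.55 and 11.72 in DKO, against 11.19, 11.06 and 11.49 in WT. Lep did not overlap between groups, at 1.00 ± 0.24, and was not called (limma adjusted p = 0.0746, and 0.0612 with the block).

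Signalling from the sympathetic nerves through cAMP is what starts lipolysis and the thermogenic programme. Of 34 genes of adrenergic, natriuretic and cAMP signalling, 27 were positive with a median of 0.43, 1 rose without the block, Rasd1, and 7 with it. These included the protein kinase A subunit Prkar2b with 0.77 ± 0.17, the phosphodiesterases Pde4d with 0.68 ± 0.16 and Pde3b with 0.68 ± 0.17, and the fatty acid receptor Ffar4 with 0.89 ± 0.24. For all named genes, 0.125% rose without the block and 2.01% with it. Thermogenic fat genes had the highest median of the lists, 0.78 over 30 tested with 23 positive, but 0 were called without the block and 3 with it. The median of this list was 1.19 within slide 1, 0.16 within slide 2 and 0.82 within slide 3. Ucp1, the uncoupling protein of brown fat, was chosen after its values were seen. It had 15.68, 14.06 and 14.61 in DKO, 12.71, 13.35 and 13.46 in Ing1-KO, 13.24, 13.14 and 10.18 in Gadd45a-KO, and 12.29, 13.93 and 11.58 in WT. Its groups did not overlap, but DKO replicate 2 and WT replicate 2 differed by 0.13, and its log2 fold change of 2.18 ± 0.78 was not called (limma adjusted p = 0.137, and 0.0985 with the block). Ppara, a nuclear receptor that switches on fat oxidation, had 12.55, 12.52 and 12.59 in DKO, against a mean of 11.34 in WT, where replicate 2 was highest at 12.07. Its 3 DKO values were nearly equal, and it was called with the block at 1.21 ± 0.28 (adjusted p = 0.0454). So was its coactivator Ppargc1a at 0.94 ± 0.26 (0.0479), and Plin5, described above, was the remaining call of the thermogenic list. The brown fat factor Ebf2, from a separate list of adipogenic and metabolic transcription factors, was called with the block at 0.70 ± 0.17 (0.0454). Members of the thermogenic list leaned the other way, as the beige marker Tmem26 with -0.93 ± 0.24 and Ucp2 with -0.71 ± 0.20, neither called. Of 7 C/EBP factors, 1 rose with the block, Cebpg with 0.55 ± 0.10, and the adipogenic factor Cebpa had 0.50 ± 0.22.

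**Figure D4:**
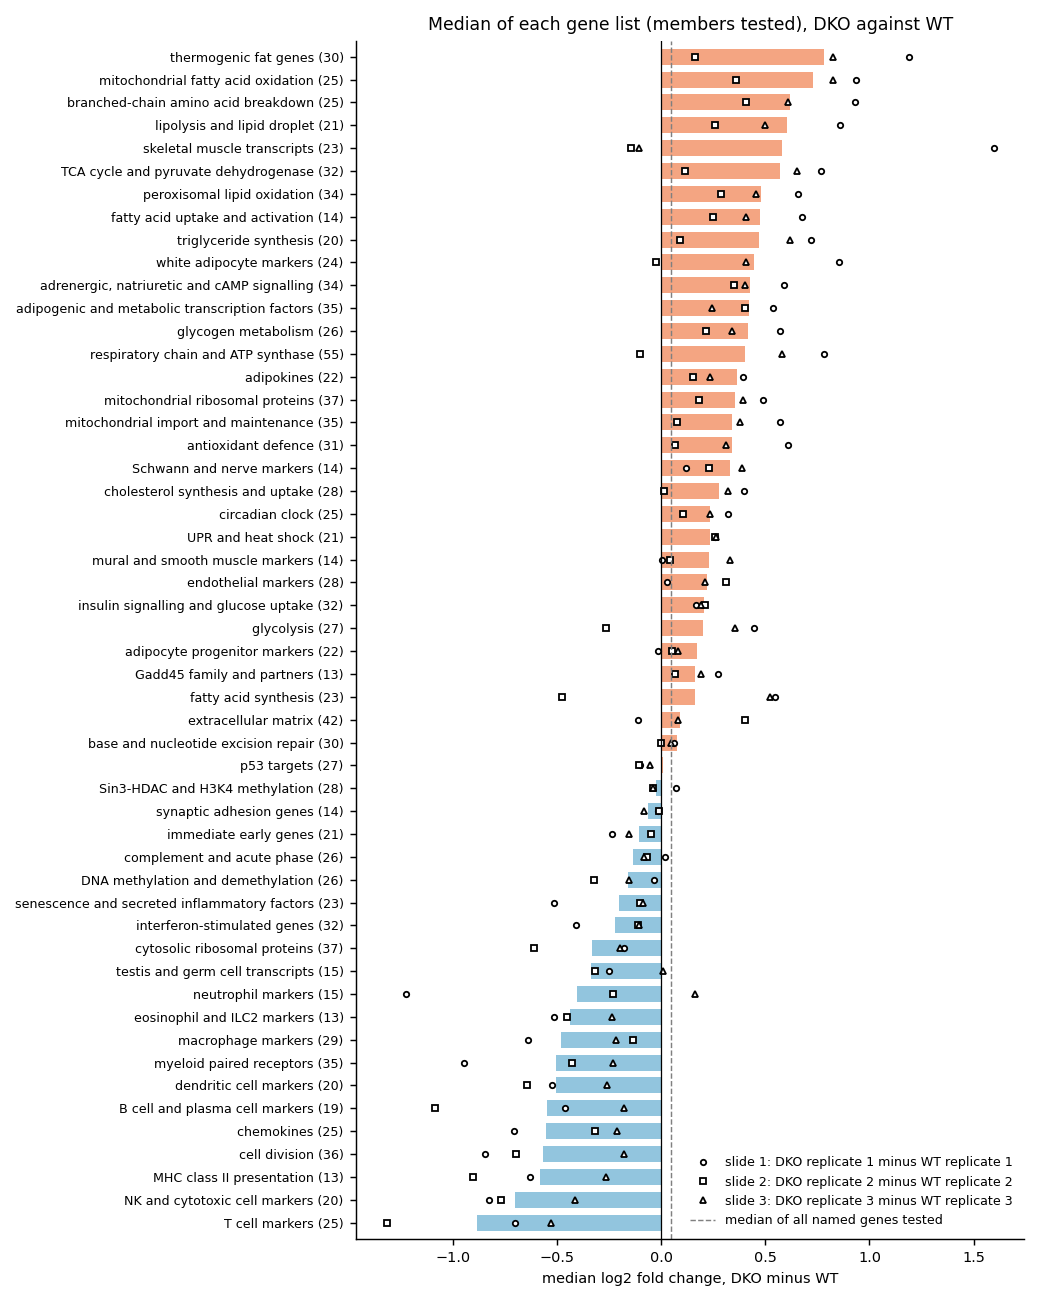
Median log2 fold change of DKO minus WT (x axis) of each gene list with 13 or more tested members (y axis, members tested in brackets), with bars for the fit over all arrays and markers for the difference within each slide. Fatty acid oxidation lies at 0.73 and T cell markers at -0.88, while the bar of skeletal muscle transcripts rests on slide 1 alone, at 1.60 against -0.15 and -0.11.

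Most immune cell lists leaned the other way, and without the block the genes called in them were myeloid. Mast cell markers did not lean, with a median of -0.06 and -0.71, 0.51 and -0.15 within slides 1, 2 and 3, and neutrophil markers had a median of -0.41, with -1.23, -0.23 and 0.16 within slides. Of 35 myeloid paired receptors and their adaptors, 33 were negative with a median of -0.50. Of these 3 fell without the block, Cd300c2, Lilra6 and Dok1, where 0.0815% of named genes did, and 5 fell with it, adding Pirb and, named here after its values were seen, the Src-family kinase gene Fgr with -0.94; 1% of named genes fell so. Macrophage markers had a median of -0.48 with 24 of 29 negative, and Cx3cr1 was the 1 call. Without WT replicate 1 the median was -0.21 for macrophage markers, -0.32 for myeloid paired receptors and -0.35 for chemokines. Timd4, a gene of resident macrophages, had -0.62 ± 0.18 and did not pass. The classic marker Adgre1, a surface receptor gene that was chosen after its values were seen, overlapped between groups with 9.87, 10.32 and 9.71 in DKO, against 11.04, 10.09 and 9.87 in WT. Of 25 chemokines, 19 were negative with a median of -0.55, and 3 fell with the block: Ccl8, Ccl12 with -0.84 ± 0.15, and Cxcl1 with -0.84 ± 0.21. Among 20 dendritic cell markers, Fscn1 fell with the block at -0.84 ± 0.17, while Cd207, the langerin of Langerhans cells, had 7.72, 7.56 and 8.36 in DKO, against 6.82, 6.59 and 6.82 in WT, with 1.14 ± 0.26 (limma adjusted p = 0.0718, not called).

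T cell and NK cell genes had the lowest medians of the lists, and none was called without or with the block. The log2 fold change was negative for each of the 25 T cell markers, the median being -0.88, and 22 were lower at an unadjusted p under 0.05, where 11.8% of named genes were. The coreceptor gene Cd8a had 10.12, 9.13 and 10.71 in DKO, against 11.04, 10.89 and 11.27 in WT. DKO replicate 2 lay lowest and replicate 3 nearest to WT, and the log2 fold change was -1.08 ± 0.31 (limma adjusted p = 0.0953, and 0.0647 with the block). The receptor subunit gene Cd3e had -0.93 ± 0.24, and Foxp3, the factor of regulatory T cells, -0.90 ± 0.27. DKO replicate 2 lay lowest in the other lymphoid lists too. NK and cytotoxic markers had a median of -0.70, B cell markers -0.55 and genes of MHC class II presentation -0.58. The MHC class II activator Ciita, also named after its values were seen, fell with the block at -1.10. Without the block Ciita was not called (limma adjusted p = 0.166). Its groups overlapped, with 9.88 in DKO replicate 3 and 9.80 in WT replicate 1. Per array, the median of the T cell markers lay -0.76, -1.64 and -0.26 from the WT mean in DKO and 0.01, -0.26 and 0.29 in WT. Without DKO replicate 2 the median was -0.51 for T cell, -0.46 for NK, -0.19 for B cell and -0.33 for MHC class II genes, and without DKO replicate 3 it was -0.84 for B cell and -0.88 for MHC class II genes.

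Cell division genes, whose transcripts mark dividing cells, had a median of -0.57 with 35 of 36 negative, and 1 fell with the block, the cyclin Ccnd1 with -0.53 ± 0.12, where 1% of all named genes fell. Per array they lay -0.73, -0.96 and -0.04 from the WT mean in DKO and 0.15, -0.25 and 0.13 in WT, so DKO replicate 3 lay within the range of WT. All 37 cytosolic ribosomal proteins were negative with a median of -0.33, and the 3 DKO values lay below the 3 WT values for 28 of them, where this held for 10.5% of named genes; none was called. The median was -0.16 with normexp background correction and with the authors' log2 values, -0.17 with quantile normalization and -0.19 without DKO replicate 2. Rps27a had 16.97, 16.58 and 16.91 in DKO, against 17.25, 17.31 and 17.20 in WT.

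The medians of the adipocyte and lymphoid lists differed from WT in opposite directions, and this stood beside the oxidative genes. White adipocyte markers had a median of 0.44 (0.69 without WT replicate 2) with 23 of 24 positive, 0 called without the block and 1 with it. Per array they lay 0.70, 0.44 and 0.15 from the WT mean in DKO and -0.09, 0.40 and -0.30 in WT, so that DKO replicate 3 lay below WT replicate 2 and DKO replicate 2 close to it. Their median was 0.855, -0.026 and 0.405 within slides 1, 2 and 3, so slide 2 did not share the rise. T cell markers had -0.703, -1.318 and -0.528 within the same slides. Fatty acid oxidation genes lay at 0.92, 0.74 and 0.54 in DKO and at -0.09, 0.36 and -0.28 in WT, with all 3 DKO arrays above all 3 WT arrays. The part that shares of cell types take in any of these differences was not tested. Among other cells of fat, adipocyte progenitor markers had a median of 0.17, extracellular matrix genes 0.09 and endothelial markers 0.22, with 0 called without the block. Without DKO replicate 2 these medians were 0.002, -0.10 and 0.009. With the block, 1 member of the endothelial list rose, the growth factor gene Vegfa with 0.68 ± 0.12, where 2.01% of all named genes rose. In which cells Vegfa rose was not tested. Without replicate 1 of each knockout, the 3 arrays with the highest signals of skeletal muscle genes, the median was 0.66 for fatty acid oxidation, 0.47 for branched-chain amino acid breakdown, 0.67 for thermogenic genes and -0.94 for T cell markers, while the count of calls was 1. For these medians only the loss of DKO replicate 1 matters, since arrays of the single knockouts do not enter the difference.

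**Figure D5:**
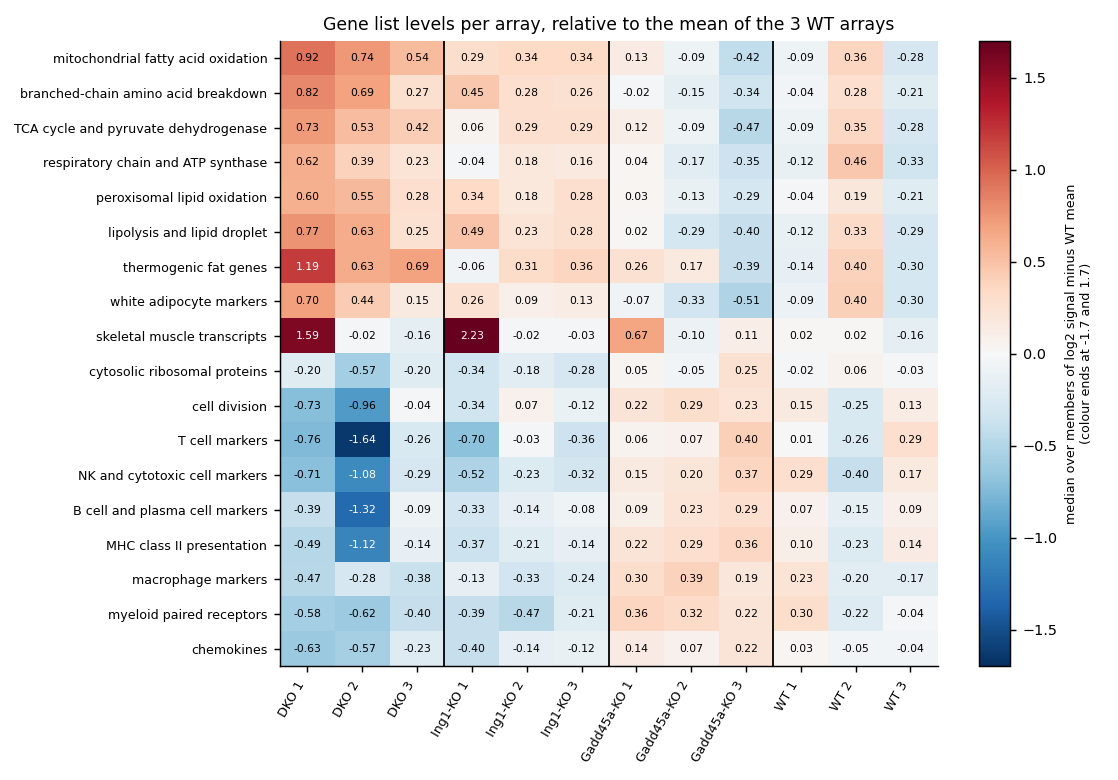
Median over the members of 18 gene lists (rows) of the log2 signal minus the mean of the 3 WT arrays, for each array of DKO, Ing1-KO, Gadd45a-KO and WT (columns). In fatty acid oxidation all 3 DKO arrays lie above WT replicate 2, the highest WT array, T cell markers reach -1.64 in DKO replicate 2, and skeletal muscle transcripts reach 1.59 in DKO replicate 1 and 2.23 in Ing1-KO replicate 1.

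Among genes tied to the known roles of the missing proteins, Tet1 was the call made without the block besides the targets themselves. Of 26 genes of DNA methylation and demethylation, 18 were negative with a median of -0.16, and Tet1 was the 1 call without and with the block. Uhrf1, which guides the maintenance methylase, had -0.68 ± 0.21 and Dnmt1, that methylase, -0.52 ± 0.17. Of 28 genes of the Sin3 complex and of H3K4 methylation, 0 were called, with a median of -0.03, and the Sin3 subunit Suds3 had 0.52 ± 0.14 (limma adjusted p = 0.0828). Of 30 genes of base and nucleotide excision repair, 1 fell with the block, the flap nuclease gene Fen1, with -0.61 ± 0.14, and the median was 0.08. Of 27 p53 targets, 1 fell with the block, the cell death gene Pmaip1, with -1.07 ± 0.23, and the median was 0.01. Of 23 genes of senescence and secreted inflammatory factors, 1 fell with the block, Cxcl1, and the cyclin-dependent kinase inhibitor gene Cdkn2a had -0.91 ± 0.30 (not called). These single falls stand beside 0.0815% of all named genes that fell without the block and 1% with it. Clock genes, interferon-stimulated genes and immediate early genes had medians of 0.24, -0.22 and -0.11 with 0 calls either way.

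The double knockout was also set against each single knockout. Against Ing1-KO, limma called 1 of 31453 genes, which is 0.00318%: the Gadd45a probe, with a log2 fold change of 1.41 (adjusted p = 0.00618), and it was the 1 call with the block as well. Against Gadd45a-KO, 4704 were called (15%), and 6086 with the block (19.3%). These comparisons share the DKO arrays with the comparison against WT, so that their values are set side by side only. For Acadl the log2 difference was 0.42 against Ing1-KO, 1.13 against Gadd45a-KO and 0.98 against WT. For Tet1 it was -0.18, -0.73 and -0.91, and for Cx3cr1 -0.28, -1.37 and -0.95. The medians of the fatty acid oxidation list were 0.39, 0.92 and 0.73 in the same order, and those of the T cell list -0.53, -1.01 and -0.88. Against Gadd45a-KO, 22 of the 25 fatty acid oxidation genes were called higher, where 9.78% of named genes were, and 19 of the 25 T cell markers were called lower, where 10.1% were. Neutrophil markers stood high in Gadd45a-KO: their median per array lay -0.54, -0.23 and -0.28 from the WT mean in DKO and 2.67, 1.78 and 0.81 in Gadd45a-KO, and 9 of 15 were called lower in DKO against Gadd45a-KO. Mesothelial markers lay at 0.36, 0.75 and 0.19 in DKO and 1.19, 0.82 and 0.48 in Gadd45a-KO. The part of these cells in the other differences from Gadd45a-KO was not tested.

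Genes beside a targeted gene can stay linked to it through crosses. Among the 98 tested named genes nearest to Ing1 and the 100 nearest to Gadd45a, 0 were called apart from the targets. With the block, 2 near Ing1, Cd209e and Atp11a, fell (2.04%) and 5 near Gadd45a changed (5%), Suclg1, Prr15, Fam13a, Gng12 and Retsat, with 4 higher and 1 lower, beside 3.01% of all named genes. Apart from Suclg1 these neighbours are named because their counts are small.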

How the data were processed

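RNA of gonadal fat was labelled with Cy3 and hybridised to one-colour Agilent arrays, per the labels' protocols. The deposited scanner files give the processed signal, an intensity that Feature Extraction 10.7.3.1 had corrected for background, per the file headers, with flags for spots well above background. The authors' deposited log2 values of the same arrays, for which the submitters' processing notes name limma 3.26.9, served as an alternative. The array's coordinates were not used, and genes were named by accession through RefSeq, which placed 27469 of 29107 probes with such an accession.

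Spots of a probe were averaged, each array's 75th percentile of the processed signal was divided out, and log2 was taken. Of several probes for a gene the one with the highest mean was kept. Genes detected above background by 3 or more of the 12 arrays were fitted in limma 3.58.1 (R 4.3.3) over all 4 genotypes, with a trended and robust spread, and p-values were adjusted by the Benjamini-Hochberg method over all 31453 tests. A call is an adjusted p under 0.05. The fit was checked for the direction and size of added changes on simulated data. That noise was independent between arrays and held no slide effect, so it cannot tell how the calls hold in these arrays.

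Slide, scan and replicate number coincide per the file headers, so the slide was fitted as a block and differences within slides were taken. Same-numbered DKO and WT arrays deviated from their group means with correlations of 0.096, 0.295 and 0.424, and other pairs with -0.343 to 0.003.

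Named are both targets, all named genes called in DKO against WT, the 15 largest rises and falls among those called with the block whose groups do not overlap, and up to 6 members of each list with the smallest p. Other genes are marked as chosen after their values were seen. The members and the gene lists were chosen with earlier results of these data known. No list was given a test, so its count and median stand beside those of all named genes. P-values set a difference against the spread between arrays of the same genotype, each array being a pool of animals. Without the block this spread also holds differences between slides.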

Additional observations from a re-analysis of the deposited data

How the results depend on the processing

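The 51 calls of DKO against WT kept their direction in every alternative that measured them (49 of 51 with the filter on all 12 arrays), while their number depended on the processing and the arrays. Without the block, leaving out an array could not reverse a direction, because the DKO and WT values of all 51 lay apart. The count was 121 with normexp background correction, 25 with no filter, 4 with plain empirical Bayes, 1 from DKO and WT arrays alone, 3 with the array row as a block and 1 with the array column as a block. Centring on the median gave 63 calls, of which 71.4% were higher against 51.0% in the analysis reported, and shifted the median of all genes to 0.051. Quantile normalization gave 62 calls and the authors' log2 values 57. Of the 51, 46 stayed called with quantile normalization, 43 with median centring, 46 with normexp and 36 with the authors' values. With the slide, which is also the replicate number, as a block, 653 were called, and 1 from DKO and WT arrays alone. Leaving out each of the 12 arrays in turn gave 1 to 3307 calls. With the block, only DKO and WT arrays were left out in turn, which gave 1 to 977, with 2, 1 and 873 without DKO replicates 1, 2 and 3. Against Ing1-KO the 1 call was lost (0) with the array column as a block, and leaving out each array gave 0 to 3 calls, or 0 to 1 with the block and a DKO or WT array left out. Against Gadd45a-KO the 4704 calls became 3062 with no filter and 3 with the array column as a block; leaving out each array gave 539 to 7065, and 1374 to 7676 with the block and a DKO or WT array left out, where the value without DKO replicate 1 was 2246. Without replicate 1 of each knockout, a choice made after seeing the data, 1 was called against WT, 0 against Ing1-KO and 1 against Gadd45a-KO. The causes of these shifts were not tested. Groups of 3 arrays limit what can be called, and a gene that missed the threshold is not shown to be equal between genotypes.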
